A study of Mus musculus with 7 samples.

Results

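The regions described here were 15083 CTCF peaks of mouse liver that carried no class and overlapped no called peak of the cohesin subunit Rad21 in the deposited lists. They were chosen by 2 criteria applied to the pooled CTCF peak list on chromosomes 1 to 19. The interval had to be absent from the class list of CTCF sites, and it had to share 0 bp with any peak of the pooled Rad21 list. They made up 20.1% of the 74980 autosomal CTCF peaks (76683 peaks on all chromosomes), and 61.8% of the autosomal CTCF peaks without Rad21. Per the study's methods the class list was restricted to CTCF peaks seen in at least 2 of 4 livers, so absence from that list and low signal are linked by the way it was made.

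The study profiled CTCF and Rad21 by ChIP-seq in livers of male CD-1 mice, Crl:CD1(ICR), at 8 weeks of age. There were 4 CTCF libraries, made with a Millipore antibody, and 3 Rad21 libraries, made with the Abcam antibody Ab992. No treatment, genotype or time point was compared, and whole liver was used, which holds hepatocytes together with endothelial, Kupffer, stellate and bile duct cells. The reads of each factor were pooled before peaks were called. The lists thus hold no value for a single mouse, no spread between mice can be given, and no test across mice was possible. Intervals below are 95% intervals for counting error only. Beside the main differences stands their mean ± SD over the 19 autosomes and the number of autosomes with the same sign, as a description of how evenly it was spread along the genome, since peaks and chromosomes are not replicates.

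CTCF is a zinc finger protein that binds an asymmetric DNA motif and can block enhancers or stop the movement of cohesin along chromatin. Cohesin is a ring-shaped complex, with Rad21 as one of its subunits, that extrudes DNA loops and is retained where it meets CTCF bound in the right orientation. In rodents, copies of the CTCF motif have also been spread through the genome by short interspersed elements of the B2 family.

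The best matches to the CTCF motif near the summits of peaks of high and of the lowest score are shown first, because they give examples of what was counted as a match. A match near a summit is not shown to be bound, and the one near Tle1 lies outside the interval of its peak. A match was the best 19-base alignment within 100 bp of the summit to a motif learnt from anchors of topologically associating domains (TADs), at a threshold passed by 1 in 10000 positions of the genome. Each sequence reads 5′ to 3′ on the strand of the motif, from reference assembly NCBIM37 (mm9), with the match in capitals. The first 5 are high-scoring and the last 3 the lowest-scoring peaks with a match.
Intron of Gm20388, chr8:124783433-124783461, minus strand: tgcctACCAGCAGTGGGCAGCATAcccct
Intron of D630003M21Rik, chr2:158036427-158036455, minus strand: ccactTCCACTAGGGAGCAGCATGgctcc
Intergenic, upstream of Mtus2, chr5:148757039-148757067, minus strand: gtctgCCCAGCAGAGGGCAATCAGcctac
Intergenic, upstream of Emb, chr13:117954055-117954083, plus strand: gaattACCACTAGAGGGCAGGAGAgtagg
Intron of 9430023L20Rik, chr15:101116751-101116779, minus strand: agatgTCCAACAGGGGGCAGTGAGggatg
Intron of Ccbl2, chr3:142391861-142391889, minus strand: aattaGGCACAAGGTGGCAGCAGTgacag
Intergenic, upstream of Tle1, chr4:72058395-72058423, minus strand: taaggGCCACAAGATGGCCCACTAatatg
Intron of Aak1, chr6:86828830-86828858, minus strand: gacacACCAGAAGAGGGCGCCAAAtctcg
Of these 8 matched words, 6 occurred once on the autosomes, that near Emb occurred 5 times and that in Aak1 occurred 6 times. The match scores of the lowest-scoring peaks, 17.08, 15.51 and 21.09 bits, stood beside 14.61 to 20.35 bits at the high-scoring peaks, and that of 21.09 bits, in Aak1, was above all of these.

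Beside these, the matched words that recurred most often are shown, because each recurred at many peaks. The first is the commonest word, printed whole in capitals. In the others, capitals mark the bases that differ from it.
Word 1, at 547 peaks: ACCAGAAGAGGGCATCAGA
Word 2, at 243 peaks: accagaagagggcGtcaga
Word 3, at 240 peaks: Gccagaagagggcatcaga
Word 4, at 90 peaks: TccagaagagggcGtcaga
Word 5, at 85 peaks: TccagaagagggcGCcaga
Word 6, at 83 peaks: Tccagaagagggcatcaga
Word 7, at 80 peaks: GccagaagagggcaCcaga
These words differed at positions 1, 14 and 15, counted from 1 at the 5′ end of the match, and were identical at all other positions.

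Signal was low at nearly all of these peaks. The signal is given as the number of CTCF fragments at the summit of the pooled libraries, recovered from the deposited fold and −log10 p. The lowest peak had 16 fragments, the median peak had 28, with quartiles of 24 and 34, and the highest had 248. The local background had a median of 5.99 fragments and sat at that lowest value in 53.2% of the peaks. The fold over background ranged from 1.68 to 11.5, with a median of 3.57. The deposited score, 10 times the −log10 of the q-value, had a median of 74 with a range from 17 to 607, and 234 peaks reached 200. These values went with the choice of the peaks and are given as a description.

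Lone CTCF sites without Rad21, the 8615 sites classed as lone that also share 0 bp with Rad21, had a median of 56 fragments, against 29 fragments at the 8694 unclassed peaks that do share bases with Rad21. Among Rad21-free autosomal peaks the share without a class fell steadily with signal. It was 99.9% at up to 20 fragments, 93.2% at 26 to 30, 70.9% at 31 to 40, 38% at 41 to 50 and 3.71% above 100. The groups therefore overlapped in signal, and peaks in the same ranges of fragments are compared below.

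**Figure D1:**
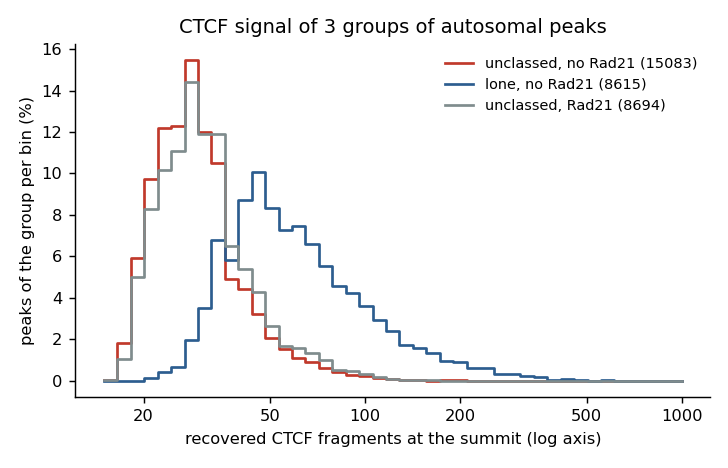
Percent of the peaks of each group (y axis) by recovered CTCF fragments at the summit (x axis, log scale). Unclassed peaks with and without Rad21 lie almost on each other, with medians of 29 and 28, and lone sites without Rad21 lie to the right, with a median of 56.

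The Rad21 criterion is a sharp limit on a continuous distance. Rad21 peaks lay 1 to 100 bp from 367 of these peaks, which had a median of 29 fragments and a motif match in 13.9% (10.7 to 17.8). On the other side of the limit, 200 unclassed peaks shared 1 to 50 bp with Rad21, with a median of 28 fragments and a match in 10.5% (6.97 to 15.5). At 5449 peaks the nearest Rad21 peak was over 10 kb away, and there 53.4% had a match (52.1 to 54.8). The share near a coding start went the other way, with 31.6% of the peaks within 100 bp of Rad21 and 6.22% of those over 10 kb from it. On both shares the peaks beside Rad21 lay nearer to the unclassed peaks that share bases with it than to the peaks far from it.

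The first comparison asked how many of these weak peaks had the sequence that CTCF binds. A match lay within 100 bp of the summit at 6727 of 15083 peaks, or 44.6% (43.8 to 45.4). Among all stretches of that length on the autosomes 1.97% held such a match, and among all autosomal CTCF peaks 51.8% did. The matches were centred on the summits, with quartiles of −26 and 24 bp. The unclassed peaks with Rad21 had a match in only 12.1%, which was 32.5 percentage points lower (31.5 to 33.6). That difference had the same sign on all 19 autosomes, with a mean of 32.1 ± 2.57 points (SD). With those peaks weighted to the same fragments it was 33.3 points.

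Lone sites without Rad21 had a match in 62.8%, a difference of −18.2 points (−19.5 to −16.9), with the same sign on 19 of 19 autosomes (mean −18.0 ± 3.05, SD). The gap was not the same over the range of signal. Between 27 and 37 fragments 51.6% of 6026 unclassed peaks and 53.0% of 1213 lone sites had a match, a difference of −1.37 points (−4.43 to 1.72; the same sign on 11 of 19 autosomes). At 38 fragments or more the shares were 51.2% and 64.9%, and the difference was −13.7 points (−15.9 to −11.5; 19 of 19 autosomes). Within both ranges lone sites lay toward more fragments, with 5890 of 7297 at 45 to 248 in the upper one against 1490 of 2729 unclassed peaks. With lone sites weighted to the fragments of the unclassed peaks over 10 bins, the difference was 2.40 points, or 2.21 points when bins with fewer than 20 lone sites were left out. This positive sign rested on the bin of 24 to 25 fragments, with 45 lone sites, and without it the difference was −1.73 points. No interval was computed for these weighted values.

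Within the unclassed peaks the share with a match rose with signal and then dropped. It was 25.3% at 16 to 21 fragments, 42.1% at 24 to 25, 56.5% at 34 to 37 and 49.0% at 45 to 248. In that last bin 18.8% of the peaks lay within 1 kb of a coding start, compared with 8.84% at 34 to 37 fragments. The bin of most fragments thus had the largest share near coding starts, while the share with a match was largest at 34 to 37 fragments.

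**Figure D2:**
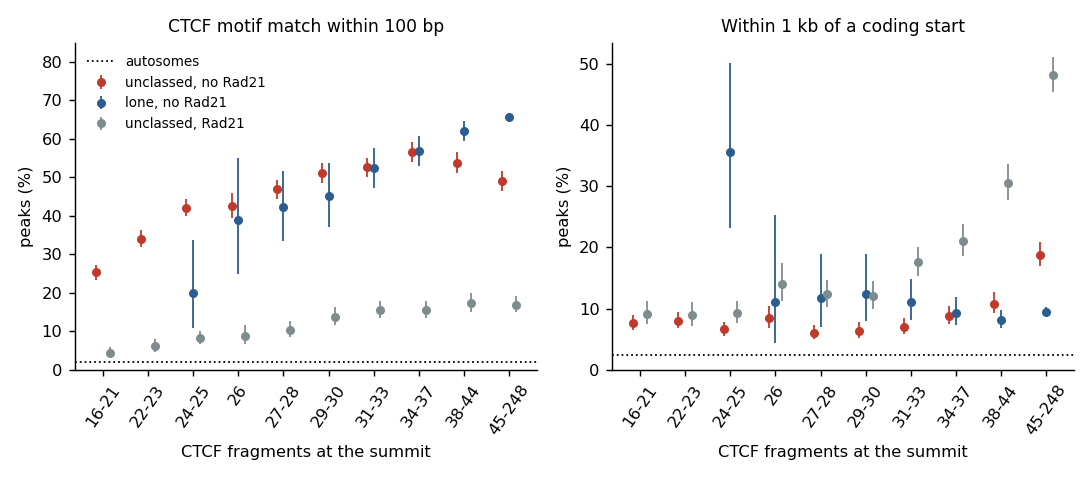
Left, percent of peaks with a CTCF motif match; right, percent within 1 kb of a protein-coding start, by bins of CTCF fragments at the summit (x axis). Points are shares with 95% Wilson intervals, bins with fewer than 20 peaks are left out, and dotted lines give the share of the autosomes (1.97% and 2.36%); on the left, unclassed peaks and lone sites without Rad21 have overlapping intervals at 26 to 37 fragments, lone sites lie below at 24 to 25 fragments (20%, 10.9 to 33.8, of 45 sites, against 42.1%) and above at 38 fragments or more.

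The matched sequence was often one of many copies in the genome. At 2468 of the 6727 peaks with a match, or 36.7%, the 19 bases occurred once on the autosomes. At 2399 peaks, or 35.7% (34.5 to 36.8), they occurred at least 100 times, and at 1435 peaks, or 21.3%, at least 1000 times. Words with at least 100 copies are called repeated words here. Among all 38819 autosomal CTCF peaks with a match, 6133 had a repeated word. How often motif matches elsewhere in the genome are repeated words was not computed. The 10 commonest words accounted for 1578 peaks, 23.5% of those with a match, whereas 3455 of the 3825 distinct words were seen at a single peak.

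Repeated words made up a smaller share of the matches at anchors of loops. They made up 5.29% of the matches at TAD anchors, 4.52% at anchors of predicted intra-TAD loops and 11% at other sites with cohesin and CTCF (CAC sites). At the unclassed peaks with Rad21 they made up 14.6%, which was a difference of 21.1 points from the unclassed peaks without Rad21 (18.5 to 23.4; 19 of 19 autosomes, mean 21.1 ± 3.87, SD). Of the 6133 autosomal CTCF peaks with a repeated word, 39.1% were unclassed peaks without Rad21 and 25.1% were lone sites without Rad21.

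Lone sites without Rad21 had repeated words in 28.5% of their matches, a difference of 7.15 points from the unclassed peaks (5.49 to 8.81; 19 of 19 autosomes, mean 6.79 ± 3.37, SD). Between 27 and 37 fragments the shares were 33.9% and 35.9%, and with lone sites weighted to the same fragments the difference was 0.12 points. The difference at 27 to 37 fragments was −1.99 points (−6.12 to 1.99). At 38 fragments or more the shares were 36.1% and 27.4%, a difference of 8.64 points (5.85 to 11.5). All of these are shares of the matches. Over all peaks, matched or not, the difference had the opposite sign. A match in a repeated word was present at 15.9% of the unclassed peaks and 17.9% of the lone sites. That difference was −1.99 points (−2.998 to −1.002), with the same sign on 17 of 19 autosomes (mean −2.14 ± 2.18, SD).

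**Figure D3:**
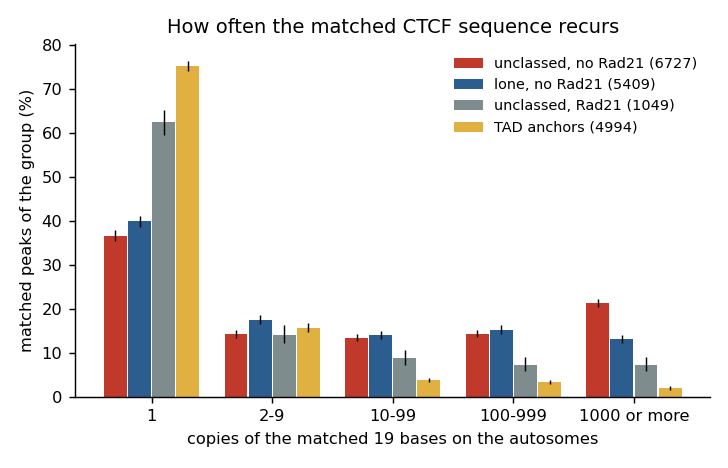
Percent of the matched peaks of each group (y axis) by the number of copies of the matched 19 bases on the autosomes (x axis), with 95% Wilson intervals and the number of matched peaks in the key. At 1000 copies or more stand 21.3% of the unclassed peaks without Rad21 but 1.98% of the TAD anchors; words in a single copy make up 36.7% and 75.3%.

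Peaks with a repeated word also shared bases beyond the motif. The commonest bases at and beside the match, over the 2399 peaks with a repeated word, are shown on the strand of the motif with the match in capitals, because they are the shared context of these sites.
Commonest base at each position: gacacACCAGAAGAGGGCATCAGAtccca
At 15 to 45 bp upstream of the centre of the match the commonest base at a position was held by a mean of 61% of these peaks, and at 15 to 45 bp downstream by 67.8%. At 46 to 80 bp the means were 54.8% and 59.0%, and at 81 to 150 bp they were 33.5% and 42.3%. At the 3426 peaks whose word had fewer than 10 copies, the same means lay between 27.9% and 33.2%. No repeat annotation was used, so the family of these repeated sequences was not assigned. By a count of 16-base words seen at least 100 times in the genome, 46.6% of the peaks with a repeated word were repeat-like over most of the sequence within 100 bp of the summit, compared with 2.16% of the peaks with a rare word and 12.4% of all autosomal stretches of that length. Both the split and this measure count copies of short words, so this contrast follows in part from the split. Over all 15083 peaks 9.07% were repeat-like, below the autosomal stretches. The share was 8.28% at lone sites without Rad21 and 0.587% at unclassed peaks with Rad21.

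**Figure D4:**
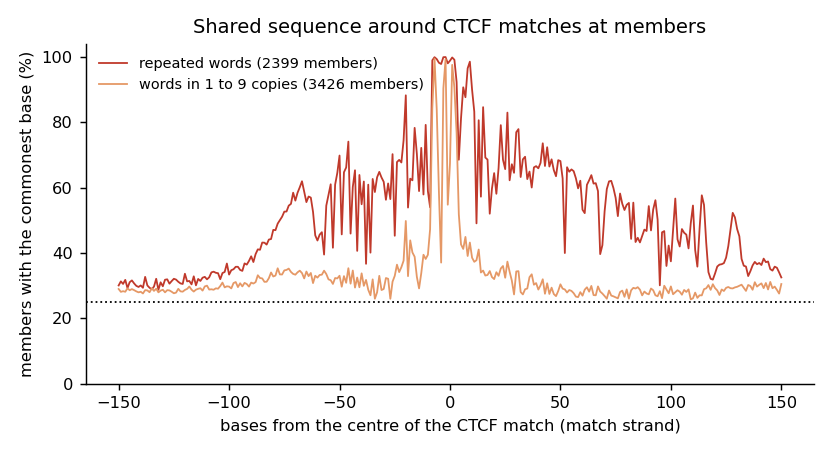
Percent of peaks holding the commonest base (y axis) at each position from the centre of the CTCF match (x axis, bases on the match strand), for 2399 peaks with a repeated word and 3426 with a word in 1 to 9 copies. The dotted line marks 25%; at 46 to 80 bp the means are 54.8% upstream and 59.0% downstream for repeated words and 33.2% and 27.9% for the others.

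Peaks with a repeated word were mostly intronic. Their summits lay in introns in 63.7% (61.8 to 65.6), compared with 50.6% (48.9 to 52.3) for rare words and 38.4% of the autosomal stretches. A share of 1.58% lay within 1 kb of a coding start. In protein-coding genes the motif pointed in the direction of transcription at 58.8% of 1518 peaks with a repeated word (56.3 to 61.3) and at 49.0% of 1835 peaks with a rare word (46.8 to 51.3). Copies of the 40 commonest words outside any CTCF peak were in the sense direction at 60.8% of 19968 places (60.1 to 61.5), and repeated words at lone sites without Rad21 at 61% of 960 (57.9 to 64.1).

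The next question was which copies of a repeated word were in a peak at all. The 40 commonest words had 47174 copies on the autosomes, of which 5.04% lay inside an unclassed peak without Rad21 and 13% inside a CTCF peak of any kind. Only uniquely mapped reads entered the lists per the study's methods, and a copy in a long identical repeat gives few such reads. The part of mapping in these shares was not tested beyond the split by unique sequence given next. Of the copies whose central 31 bases occurred once, 31.1% lay in a CTCF peak (30.2 to 32.1), compared with 8.56% of the copies whose 31 bases recurred (8.28 to 8.84). The words were picked by how many of these peaks held them, so a word with few copies could enter only if a large part of them lay in peaks. The shares below therefore describe these words, and no direction between words is drawn from them.

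Word 1 had 12976 copies, of which 1170 (9.02%) lay in a CTCF peak and 596 (4.59%) in an unclassed peak without Rad21. Word 3, which differs from it by A1G, had 2358 copies, of which 995 (42.2%) lay in a CTCF peak and 251 (10.6%) in an unclassed peak without Rad21. Among copies with a unique 31-base centre the shares were 21% of 1250 copies of word 1 and 43.6% of 1365 copies of word 3. Word 7, which differs by A1G and T15C, had 65.6% of its 418 such copies in a CTCF peak.

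The share of copies in an unclassed peak without Rad21 also varied among words. Among copies with a unique centre it was 8.08% for word 1, 13.1% for word 2, 9.67% for word 3, 8.89% for word 4, 18.9% for word 5, 5.48% for word 6 and 12% for word 7, and the tenth commonest word had 0 of its 152 such copies in one.

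**Figure D5:**
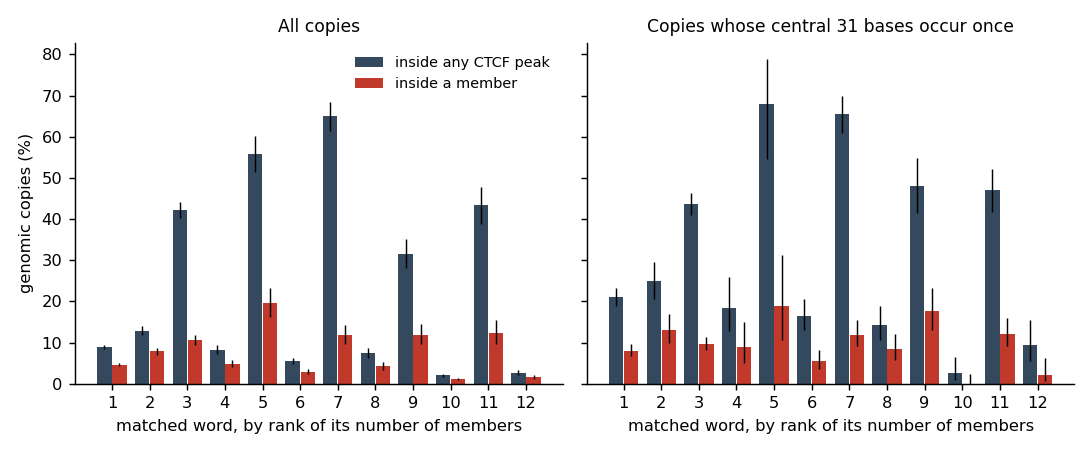
Percent of the genomic copies of a word (y axis) that lay inside any CTCF peak and inside an unclassed peak without Rad21 (member), for the 12 commonest words (x axis, by rank), with 95% Wilson intervals. Left, all copies; right, copies whose central 31 bases occur once. Word 1 stands at 9.02% for any CTCF peak and 4.59% for members on the left, and at 21% and 8.08% on the right; since words were chosen by the number of members, their order is no finding.

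Matches to rare words were compared base by base with those at lone sites and at TAD anchors on even-numbered autosomes, held out when the motif was learnt. The median match score of words with fewer than 10 copies was 15.56 bits at 3426 unclassed peaks, 16.48 bits at 3105 lone sites and 17.34 bits at 2147 TAD anchors. The largest gap from TAD anchors was at position 5, where C stood in 36.5% of the unclassed peaks, 37% of the lone sites and 60.4% of the TAD anchors. Some rare words had the same bases as word 1 between positions 1 and 13. Among words in 2 to 9 copies these were 28.8% at unclassed peaks, 28.4% at lone sites and 6.39% at all TAD anchors. Among words in 1 copy they were 3.61%, 5.28% and 0.745%. Word 1 has G at position 5, and the part of such words in that gap was not tested. A CpG at positions 13 and 14 was present in 21.4% of the unclassed peaks (20.1 to 22.8), 31.7% of the lone sites and 31.9% of the TAD anchors. The difference from lone sites was −10.3 points (−12.4 to −8.12), with the same sign on 18 of 19 autosomes. Between 27 and 37 fragments it was −2.35 points (−7.57 to 2.34), and at 38 fragments or more it was −5.65 points (−9.25 to −1.85), with the same sign on 14 of 19 autosomes.

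The 8356 peaks without a match, 55.4% of all, differed from the rest in where they lay. A coding start was within 1 kb of 13.6% of them (12.9 to 14.4), compared with 3.5% of the peaks with a rare word and 1.58% of those with a repeated word, while 2.36% of the autosomal bases lie that close to a start. Their median GC content within 100 bp of the summit was 49.8%, against 47.3% and 43.3% for rare and repeated words, and they held a mean of 4.33 CpGs, against 2.32 and 1.80. Their signal was lower, with a median of 27 fragments against 30 and 29 at the peaks with a rare and a repeated word. The median scores were 63, 87 and 80 in the same order. Rad21 was nearer, with a median distance between summits of 5608 bp, against 9550 bp for peaks with a rare word.

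Words of other factors were searched on both strands within 100 bp of these 8356 summits. A word that is part of the HNF4A motif, CAAAGTCCA, was present at 41 peaks, or 0.491% (0.362 to 0.665), compared with 0.258% of the autosomal stretches of the same length. HNF4A is a nuclear receptor that governs hepatocyte genes. The NRF1 word GCGCNTGCG was present at 65 peaks (0.778%, background 0.111%), the ETS word CCGGAAGT at 36 (0.431%, background 0.125%) and the SP/KLF word GGGGCGGGG at 106 (1.27%, background 0.356%), all of them words common at promoters. Over 1 kb from a coding start, among 7218 peaks, the shares were 0.540% for HNF4A, 0.360% for NRF1, 0.374% for ETS and 0.582% for SP/KLF. The nuclear receptor word AGGTCA was present at 15%, background 11.2%, and the E-box CACGTG at 3.94%, background 2.0%. The FOXA word TGTTTAC, at 3.03%, stood near its background of 3.0%, the AP-1 word TGANTCA, at 5.72%, near 5.99%, and the GATA word AGATAA, at 8.08%, below 13.2%. The CRE word was present at 20 peaks (0.239%, background 0.111%), the YY1 word at 10 (0.12%, background 0.209%), the PAR bZIP word at 7 (0.0838%, background 0.0415%) and the C/EBP word at 5 (0.0598%, background 0.0162%). Over all 8694 unclassed peaks with Rad21, matched or not, 0.966% held the HNF4A word, 1.75% SP/KLF, 0.541% ETS and 0.449% CRE. There AGGTCA stood at 16.6%, FOXA at 3.47%, AP-1 at 6.02%, YY1 at 0.253% and C/EBP at 0.104%. All of these were higher than at the peaks without a match. NRF1 (0.702%), the E-box (3.83%), GATA (7.89%) and PAR bZIP (0.0575%) were lower. A match says only that these letters were there, and each word covered a small part of the peaks without a CTCF match. The autosomal stretches behind the backgrounds had a median GC content of 41.8% and a mean of 1.70 CpGs. At these peaks the values were 49.8% and 4.33, and the part of base composition in the shares was not tested.

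Over all 15083 peaks, 8.71% (8.27 to 9.17) had a summit within 1 kb of a protein-coding start. The unclassed peaks with Rad21 had 19.6%, a difference of −10.9 points (−11.9 to −9.96; 19 of 19 autosomes, mean −10.6 ± 3.71, SD). Lone sites had 9.62%, a difference of −0.918 points (−1.69 to −0.157) that had this sign on 12 of 19 autosomes (mean −0.775 ± 1.73, SD). Its interval reached 0 on even-numbered autosomes, at −0.940 points (−2.07 to 0.156), and when Rad21 counted as shared only with summits within 100 bp, at −0.381 (−1.19 to 0.408). With lone sites weighted to the same fragments it was −4.73 points, and −1.04 without sparse bins and the bin of 24 to 25 fragments. Between 27 and 37 fragments the difference from lone sites was −3.37 points (−5.31 to −1.64; 16 of 19 autosomes), and at 38 fragments or more it was 5.84 points (4.37 to 7.38; 17 of 19 autosomes), in ranges where lone sites lay toward more fragments.

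By position, 55% of the summits were intronic, 35.7% intergenic, 4.1% in coding exons, 3.6% in untranslated exons and 1.60% in noncoding exons. The autosomal stretches were 38.4% intronic and 58.2% intergenic. The share in introns was 3.21 points above lone sites (1.89 to 4.53; 15 of 19 autosomes) and 5.02 points above the unclassed peaks with Rad21 (3.7 to 6.33; 18 of 19 autosomes).

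The nearest other peak of the same kind had its summit a median of 27027 bp away, and 26.1% had one within 10 kb. The nearest classed CTCF site lay a median of 9052 bp away and the nearest anchor 39263 bp away, compared with 37999 bp for lone sites. The nearest Rad21 summit lay a median of 6623 bp away, against 7143 bp for lone sites, and 16.7% had a Rad21 peak within 1 kb. Density ranged from 4.52 peaks per Mb on chromosome 3 to 9.08 on chromosome 11, whereas the share of autosomal CTCF peaks that were of this kind was steady, from 18.7% on chromosome 7 to 21.9% on chromosome 13. The share with a motif match ranged from 40.3% on chromosome 19 to 51.7% on chromosome 5.

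The peak of highest score lay at chr8:124783237-124783705, with 85 fragments over a background of 6.49 and a score of 607. It had a match in a single-copy word 45 bp from the summit, in an intron of the long gene model Gm20388, and the nearest Rad21 peak was 9595 bp away. A peak upstream of Mtus2, which encodes a microtubule-associated protein, had 70 fragments over a background of 5.99, with the match 1 bp from the summit. A peak 55378 bp upstream of Emb, the gene of the cell adhesion protein embigin, had 69 fragments. The peak in D630003M21Rik had 154 fragments but over a background of 35.1, and that in 9430023L20Rik had 188 over 60.7, so their folds were 4.29 and 3.06, against 11.5 at the peak of highest score. High scores were thus reached both at high folds over a low background and at smaller folds over a high one.

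The highest-scoring peak with a repeated word lay at chr10:80280771-80281069, 4658 bp upstream of Jsrp1, which encodes a sarcoplasmic reticulum protein of muscle. It had 99 fragments over a background of 21.3, and its word is printed here with its flanks because it is the match of highest score among the named peaks, at 22.21 bits.
Upstream of Jsrp1, chr10:80280902-80280930, minus strand: gactcACCAGAAGAGGGCACCAGAtctcc
That word, with T15C relative to word 1, had 692 copies on the autosomes, of which 31.5% lay in a CTCF peak and 11.8% in a peak of the kind described here. A peak in Dlg1, the gene of a membrane scaffold protein, held word 3, 712 bp upstream of a coding start, with 59 fragments over 8.64.

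The highest-scoring peaks without a match included several at promoters. The first lay 114 bp downstream of a start of Tspan9, a tetraspanin gene, with 113 fragments over a background of 24.4, and Rad21 was 122 bp away. A peak 83 bp downstream of a start of Atf1, which encodes a transcription factor of the CREB family, had 92 fragments over 17.7, and a peak 258 bp downstream of a start of Oaz1, the ornithine decarboxylase antizyme gene, had 105 over 24. A peak 570 bp upstream of Apoe, the gene of the lipoprotein ligand apolipoprotein E, which hepatocytes secrete, had a score of 279 and a fold of 3.22 over a background of 40.6. A peak 172 bp downstream of a start of Midn had 182 over 69.8, and one in the Hoxd10 transcript, 646 bp from its start, had 56 over 8.19. Of the 10 highest peaks within 1 kb of a start, 8 had no match, and the exceptions were those at Prss41 and Dlg1. At Prss41 the nearest Rad21 peak was 20 bp away. Backgrounds at these promoters were above the median of 5.99 in each case.

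Of 21418 protein-coding gene models on the autosomes, 5514, or 25.7%, held at least 1 of these peaks within the gene, and 1291 had one within 1 kb of a start. Genes with a peak had a median length of 51.4 kb and those without 9.86 kb. The part of gene length in the counts below was not tested. For each list below the values over all genes are 25.7% with a peak in the gene and 1291 of 21418 with one near a start. The gene models with most peaks were the 4435 kb model Gm20388, with 53, and a 3009 kb model of Fgfr2, with 33. Zbtb20, which encodes a zinc finger repressor active in liver, held 17 in 767 kb, and Rora, which encodes a nuclear receptor of the circadian clock, held 14 in 734 kb.

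Hepatocyte transcription factors had a peak in 12 of 20 genes, against the 25.7% of all genes, with a median gene length of 37.2 kb. Hnf4a held 4, the strongest with 48 fragments (strongest here and below means highest score), and Stat5b, which transmits the growth hormone signal, held 4, the strongest with 53 fragments and a match. Nr1i2, the gene of the xenobiotic receptor PXR, held 3, Ppara, the gene of a fatty acid sensor, held 2, and Cux2 held 2, the strongest with 51 fragments. Within 1 kb of a start a peak was present at Hnf4a and Foxa3 only. Of the same 20 genes, 9 held an unclassed peak with Rad21 and 7 held a lone site.

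Hepatocyte secreted proteins had a peak in the gene at 6 of 21 gene models and near a start at 4, which were F2, Apoe, Hp and Apob. The share with a peak in the gene, 28.6%, was near the 25.7% of all genes. Apob, the structural protein of very low density lipoprotein, had a peak of 29 fragments 452 bp downstream of its start, and Hp, the gene of haptoglobin, one of 41 fragments 319 bp upstream. Neither had a match. Alb, the albumin gene, held 1 peak of 32 fragments, 6108 bp from its start, also without a match. Hepatocyte metabolism genes had a peak in 6 of 19, namely Cps1, Ass1, Pck1, Cyp3a11, Acaca and Scd1. In Acaca, which encodes acetyl-CoA carboxylase, the strongest of 4 peaks held a word of 2358 copies, the number of word 3, with 40 fragments. Of 94 gene models with symbols that begin with Cyp1, Cyp2, Cyp3 or Cyp4, which takes in Cyp26, Cyp27 and Cyp39 genes, 12 held a peak and 4 had one near a start.

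For the other cell types of liver, a peak lay in 3 of 5 endothelial marker genes (Kdr, Stab2 and Pecam1), 2 of 5 stellate genes (Lrat and Reln), 1 of 5 Kupffer cell or macrophage genes (Csf1r), 1 of 4 bile duct genes (Epcam) and 0 of 5 lymphocyte genes. The median gene lengths were 96.4, 38.5, 26.6, 11.5 and 6.42 kb in that order, and 25.7% of all genes held a peak. ChIP signal measures no expression, and which cells gave a peak was not tested. Among genes known for CTCF sites, 7 of 21 imprinted genes held a peak, with 2 in Igf2 and 3 each in Grb10 and Kcnq1. Of 24 clustered protocadherin genes 7 had a peak near a start, and of 40 Hox gene models 9 held one. Both models of Hoxa3 and that of Hoxa4 held the same peak. Olfactory receptor genes held a peak in 1 of 1106 and vomeronasal receptor genes in 0 of 327, with median gene lengths of 0.96 and 1.09 kb. The 1 was a 156 kb model of Olfr56, whose strongest peak lay 42 bp from a start of Ifi47.

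Genes of CTCF, cohesin and their partners had a peak in 11 of 19, with a median gene length of 33.7 kb. Nipbl, which encodes the cohesin loader, held 4, the strongest with 34 fragments and a word of 12976 copies, and Wapal, which encodes the cohesin release factor, held 3, the strongest with 32 fragments and a word of 3519 copies. In Yy1 a peak of 45 fragments held a word of 3425 copies. Maz had a peak of 86 fragments with a match in a single-copy word, 296 bp upstream of its start. Of 365 gene models with symbols that begin with Zfp 61 held a peak, or 16.7%, and 31 had one near a start. Of the 19 genes of CTCF, cohesin and their partners, 9 held a lone site and 6 held an unclassed peak with Rad21.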

How the data were processed

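ChIP-seq peak lists for CTCF (4 libraries) and Rad21 (3 libraries) of male mouse liver were used. As the methods describe, the authors combined all reads of a factor, mapped them to mm9 with Bowtie2, kept uniquely mapped reads and called peaks with MACS2. Blacklisted regions and peaks of PCR duplicates alone were removed. Each deposited list gives a score, a fold (ratio) over local background and the −log10 of the p-value and of the q-value at the summit, as the authors' peak caller wrote them. The score is 10 times the −log10 q-value. Replicates were pooled, so there is no value per mouse.

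The peaks described, the gene lists and the tests were chosen with earlier results of these data known. Fragments at the summit and their background were solved from the fold and −log10 p-value, and the fragments came out whole, to within 0.05, at 74977 of 74980 peaks. The CTCF motif, 19 bases wide, was learnt from TAD anchors of odd-numbered autosomes (2786 of 3038 sites used) and called from 12.1 bits. Background shares come from all autosomal stretches of the same length (100 bp either side of a centre). Repeat-like means that over 50% of the 16-base words of such a stretch occur at least 100 times in the genome, and this measure and the count of copies were chosen after seeing the data. Groups were compared by shares, with 95% Wilson intervals for a share and Newcombe intervals for a difference. Named regions are the 10 highest scores with a match, the 10 without one and the 10 within 1 kb of a coding start, and printed sequences are the first 5 with a match outside chromosome 18, the 3 of lowest score and the commonest words. Regions with a repeated word were added to these later. Regions on chromosome 18 are not described singly. Genes and sequence come from assembly NCBIM37. The scripts were tested on simulated data and used Numba 0.67.0, pandas 2.3.3, Matplotlib 3.10.9, SciPy 1.17.1 and NumPy 2.4.6 under Python 3.11.15.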

Additional observations from a re-analysis of the deposited data

How the results depend on the processing

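No paired analysis was possible because each list pools the libraries of a factor, and for the same reason no replicate could be left out. The soft-masked repeat share was not run, since the reference has 0 lower-case bases. Of the alternatives, 27 values stayed within their interval, 38 moved beyond it and 2 reversed; the cause was not tested. Alternatives for repeated words, and those that leave out bins, were chosen after seeing the data. The motif share at the unclassed peaks without Rad21 (44.6%) was 50.4% at a score of at least 50, 48.4% with no Rad21 peak within 1 kb, 37.4% when Rad21 counted as shared only with summits within 100 bp, 36.4% within 50 bp of the summit, 46.7% anywhere in the interval, 8.74% at the stricter threshold (background 0.131%) and 45.6% with the matrix MA0139.1. Its difference from lone sites (−18.2 points) was −12.5 at a score of at least 50, −21.0 by summits, −19.7 within 50 bp and −9.43 at the stricter threshold, and it reversed to 2.40 when weighted to equal fragments, or 2.21 without sparse bins, and was −1.73 when the bin of 24 to 25 fragments (45 lone sites) was also left out. Its difference from unclassed peaks with Rad21 (32.5) was 35.7, 36.4, 21.5, 26.4, 33.6 and 7.47 under the score, 1 kb, summit, 50 bp, interval and stricter settings. The share near a coding start (8.71%) was 5.79% with no Rad21 within 1 kb, 11.4% by summits, 8.21% on even-numbered autosomes, 5.84% within 500 bp, 14.6% within 2500 bp and 12.1% with all annotated genes. Its difference from lone sites (−0.918) was −1.74 within 2500 bp, −4.73 when weighted and −5.64 without sparse bins, but −1.04 when that bin was also left out, and its interval reached 0 by summits, at −0.381 (−1.19 to 0.408), and on even-numbered autosomes, at −0.940 (−2.07 to 0.156). Its difference from unclassed peaks with Rad21 (−10.9) was −12.6, −13.8, −6.08, −9.94, −9.25, −9.15 and −8.99 under the score, 1 kb, summit, even-autosome, 500 bp, 2500 bp and weighted settings. Repeated words (35.7% of matches) were 49.1% at 10 copies or more and 21.3% at 1000 or more, and their difference from lone sites (7.15) was 0.12 when weighted without sparse bins, which already leaves out that bin.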
